A study of Mus musculus with 9 samples.

Results

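The 10 genes described here encode regulators of mechanistic target of rapamycin complex 1 (mTORC1) and, in the 4E-binding proteins, its substrates. Most of them are known to respond to stress at the transcript level, and all 10 are called regulators below. They were chosen by name, with earlier results of these data known. The list holds the sestrins Sesn1, Sesn2 and Sesn3, the DDIT4 family genes Ddit4 and Ddit4l, the 4E-binding proteins Eif4ebp1 and Eif4ebp2, the mTOR-bound inhibitor Deptor, and the Rag GTPases Rragc and Rragd. They are 10 of 24060 genes in the count table, and all 10 were among the 15153 genes with enough counts to be tested. RNA was sequenced from primary immature neurons of mouse embryos at embryonic day 14, grown for 2 days in vitro in a medium that contained fetal bovine and horse serum. The cultures were exposed for 6 h to 2-deoxyglucose (2-DG), a glucose analogue that cells phosphorylate but cannot carry through glycolysis, at 1 mM or 10 mM, or were left untreated as the control. Each of the 3 groups had 3 libraries, numbered 1 to 3 and called independent by the series' design text, which does not say which cultures they came from. The p-values below therefore measure the spread between these libraries.

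mTORC1 is a kinase complex on the lysosomal surface that promotes protein synthesis and growth when amino acids, energy and growth factors are sufficient. Amino acids act through the Rag GTPases, which sestrins hold back by binding the GATOR2 complex, and energy and growth factors act through the TSC complex and Rheb, where DDIT4 acts as an inhibitor. Active mTORC1 phosphorylates the 4E-binding proteins, which then release the cap-binding protein eIF4E and allow translation to start. Transcript levels do not show how far the kinase is active.

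After 6 h of 2-DG, 3 of these regulators rose steeply at both doses: Eif4ebp1, Sesn2 and Ddit4. Their relatives Eif4ebp2, Sesn1, Sesn3 and Ddit4l did not rise against the control at either dose in the fit without a replicate block. Deptor and Rragc rose at 10 mM and did not pass the test at 1 mM. Rragd fell at both doses, and Eif4ebp2 fell at 10 mM. Against untreated libraries, a rise as in the name "stress-induced" was thus called for 3 of the 10 genes at 1 mM and for 5 at 10 mM. Of all genes tested, 5.69% and 25.7% rose at these doses in turn. As the list was chosen with earlier results of these data known, these shares are a description and no test of the list.

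Of the 10 genes, 3 rose, 1 fell and 6 did not pass the test at 1 mM against the control. A gene passed when its adjusted p was under 0.05 in edgeR's quasi-likelihood F test with Benjamini-Hochberg adjustment over all genes tested, and every adjusted p of a gene below comes from this test. Of all genes tested, 10.0% passed at 1 mM, with 5.69% rising and 4.34% falling. At 10 mM against the control, 5 of the 10 rose, 2 fell and 3 did not pass, beside 49.7% of all genes, 25.7% rising and 24.0% falling. At 10 mM against 1 mM, 6 rose, 1 fell and 3 did not pass, beside 31.2% of all genes, 17.5% rising and 13.7% falling. The median log2 fold change of the 10 genes was 0.02, 0.28 and 0.27 in these comparisons in turn, where that of all genes was 0.00337, -0.0106 and 0.00372. With the replicate number as a block, which raised the share of all genes that passed, 3 of the 10 rose and 2 fell at 1 mM (36.3% of all genes, 18.1% rising and 18.3% falling). In that fit 6 rose and 3 fell at 10 mM against the control (68.2%, 34.4% rising and 33.8% falling), and 6 rose and 2 fell at 10 mM against 1 mM (56.3%, 30.7% rising and 25.6% falling). The comparisons share libraries: both doses were set against the same 3 control libraries.

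**Figure D1:**
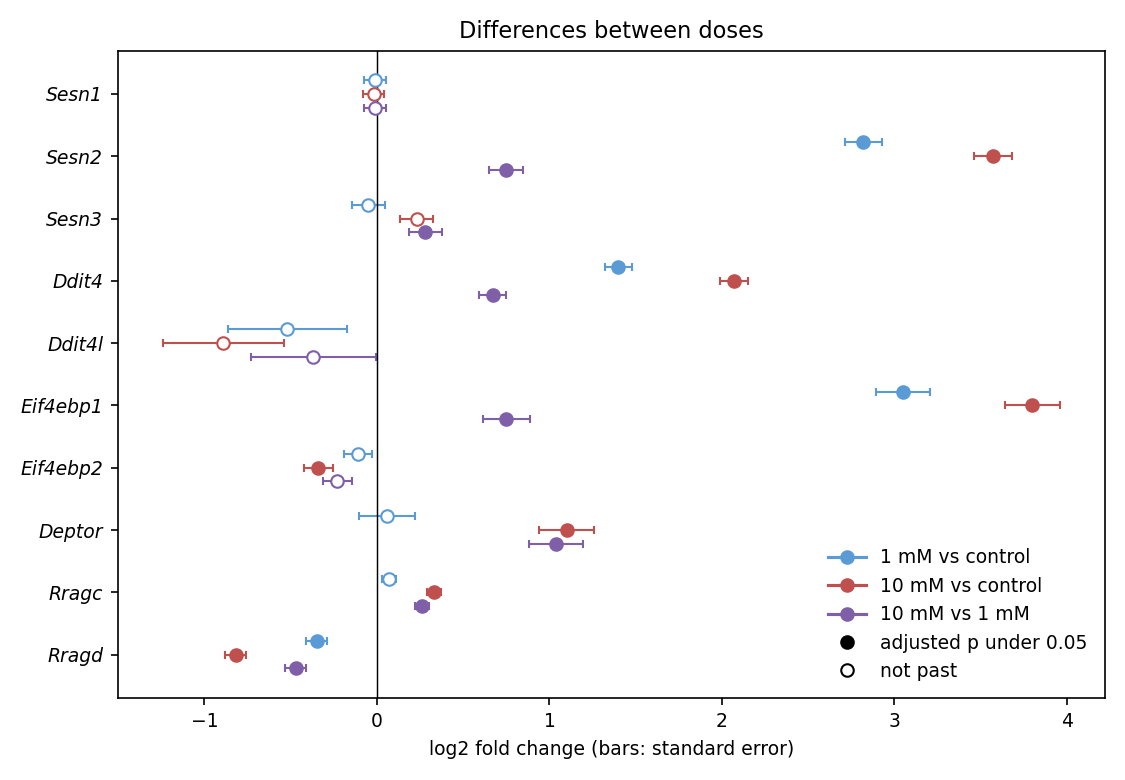
Log2 fold changes of the 10 genes (x axis) for 1 mM against control (blue), 10 mM against control (red) and 10 mM against 1 mM (purple), with bars of 1 standard error and filled points where the adjusted p was under 0.05. Sesn2 and Eif4ebp1 lie farthest to the right at both doses, at 2.82 and 3.05 for 1 mM and at 3.57 and 3.80 for 10 mM, while Rragd lies to the left of 0 in all 3 comparisons.

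Libraries held 40.1 to 48.2 M counts on genes (M, mega). All 10 immature neuron markers listed were detected. Levels are given in CPM, which puts the counts of all libraries on the same total after TMM scaling, and the markers' summed level was 6957 to 7237 CPM in untreated libraries, 6664 to 6877 CPM at 1 mM and 5718 to 6075 CPM at 10 mM. Among them, 0 of 10 passed the edgeR test at 1 mM, and 4 of 10 fell and 0 rose at 10 mM against the control. With the replicate number as a block, 2 of 10 fell at 1 mM, and 4 fell and 1 rose at 10 mM. For these and the markers below, 5.69% of all genes rose and 4.34% fell at 1 mM without the block. At 10 mM the shares were 25.7% and 24.0%. With the block 18.1% of all genes rose and 18.3% fell at 1 mM, and 34.4% and 33.8% at 10 mM. Microglia and macrophage markers, 10 listed and none at 0 in every library, summed to 56.8 to 86.4 CPM in untreated libraries, 24.8 to 30.8 at 1 mM and 26.7 to 39.5 at 10 mM. Of them, 7 of 10 fell at 1 mM and 9 of 10 at 10 mM, and none rose against the control. Radial glia and progenitor markers summed to 1624 to 2089.6 CPM in untreated libraries, 1384 to 1705 at 1 mM and 1317 to 1589.7 at 10 mM, with 2 and 4 of 10 falling at the 2 doses in turn and none rising. With the block 7 fell and 1 rose at 1 mM, and 8 fell and 1 rose at 10 mM. Oligodendrocyte lineage markers, 6 listed and 5 tested, summed to 68.2 to 71.1 CPM in untreated libraries, 55 to 61.9 at 1 mM and 47.3 to 55.9 at 10 mM, and 1 and 2 fell at the doses in turn (2 and 4 with the block). Astrocyte markers, 5 listed and 3 tested, summed to 30.3 to 61.5 CPM in untreated libraries, 24.8 to 44.0 at 1 mM and 20.2 to 39.6 at 10 mM, and 0 and 1 fell (3 and 3 with the block). Endothelial and pericyte markers, 6 listed and 4 tested, summed to 31.0 to 40.9 CPM in untreated libraries. They summed to 30.8 to 39.6 at 1 mM (1 fell) and 26.5 to 32.6 at 10 mM (1 rose, 1 fell). Fibroblast and meninges markers, 6 listed and 5 tested, summed to 52.7 to 115 CPM in untreated libraries. They summed to 54.2 to 119 at 1 mM (none passed, 1 rose with the block) and 54.7 to 106 at 10 mM (1 fell). With the block each of these lists had 1 rise and 2 falls at 10 mM. The part of these shifts in the regulators' differences was not tested, and in bulk RNA fewer cells of a type and less RNA per cell cannot be told apart.

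Sequences before the transcription start were at hand for 8 of the 10 genes, in 9 windows of 250 bases before to 50 after the start (RefSeq, GRCm38.p6); Eif4ebp1 and Deptor had no entry. The windows of Sesn2 and Ddit4, which rose, and of Rragc and Rragd, which moved in opposite directions, are shown from 5′ to 3′ on the strand of the gene, leaving out bases inside the annotated gene. Capitals mark the E-box CACGTG, the element bound by TFEB, TFE3 and other basic helix-loop-helix factors. The windows lie at chr4:132510502-132510706 (minus) for Sesn2, chr10:59951835-59952020 (minus) for Ddit4, chr4:123917183-123917432 (plus) for Rragc and chr4:32982748-32982997 (plus) for Rragd.
Sesn2: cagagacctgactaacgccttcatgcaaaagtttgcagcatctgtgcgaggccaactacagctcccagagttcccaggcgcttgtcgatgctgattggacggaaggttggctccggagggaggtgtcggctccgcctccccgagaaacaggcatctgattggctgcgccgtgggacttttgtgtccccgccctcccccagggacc
Ddit4: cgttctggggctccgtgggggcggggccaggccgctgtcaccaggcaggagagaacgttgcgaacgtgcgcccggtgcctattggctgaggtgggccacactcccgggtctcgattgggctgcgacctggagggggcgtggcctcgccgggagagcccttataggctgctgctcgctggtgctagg
Rragc: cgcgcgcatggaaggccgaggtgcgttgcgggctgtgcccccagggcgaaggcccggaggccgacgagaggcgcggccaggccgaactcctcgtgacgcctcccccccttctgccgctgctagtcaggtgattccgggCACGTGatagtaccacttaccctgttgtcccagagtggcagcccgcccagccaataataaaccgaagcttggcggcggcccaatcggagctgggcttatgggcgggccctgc
Rragd: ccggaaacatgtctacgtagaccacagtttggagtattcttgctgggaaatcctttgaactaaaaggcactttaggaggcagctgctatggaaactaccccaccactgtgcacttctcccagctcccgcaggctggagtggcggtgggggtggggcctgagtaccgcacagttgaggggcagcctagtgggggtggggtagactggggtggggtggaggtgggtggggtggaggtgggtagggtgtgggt

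Both strands of the 9 windows were searched for the E-box and for the composite element of ATF4 and C/EBP factors, written TGATGNAA. ATF4 is the transcription factor of the integrated stress response. The E-box was found in Rragc only, at position -112 from the start, and 7.15% of the 32851 windows in the RefSeq table held it. The composite element was in 0 of the 9 windows and in 3.97% of all windows. Only exact matches within these windows were counted, so elements elsewhere in a gene, or with a mismatch, were not looked for. The 250 bases before the start held 59.6 to 71.2% G and C in the 9 windows, where the median of all windows was 52.4%.

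The sestrins bind GATOR2 and thereby restrain the Rag branch, and sestrin 2 is known as a sensor of leucine. Sesn2 lies at chr4:132492032-132510501 on the minus strand (GRCm38, GENCODE M21). It had 20.8, 26.5 and 23.4 CPM in control libraries 1, 2 and 3, 166, 149 and 186 CPM at 1 mM, and 287, 255 and 300.1 CPM at 10 mM. No library of one dose reached into the range of another. The level averaged 167 ± 18.3 CPM at 1 mM and 23.6 ± 2.86 CPM in the control (SD, n = 3 each), a 7.07-fold difference (log2 fold change 2.82, SE 0.107, edgeR adjusted p = 8.51e-08). At 10 mM it averaged 281 ± 23.2 CPM, 11.9-fold above the control (log2 3.57, SE 0.11, edgeR adjusted p = 5.45e-09), rank 25 from the largest rise among all genes tested. The difference of 10 mM from 1 mM was smaller, at 1.68-fold (log2 0.75, SE 0.0978, edgeR adjusted p = 0.000441).

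Sesn1, known as a p53 target, showed none of this. It had 55.9, 59.3 and 53.0 CPM in untreated libraries, 57.7, 56.3 and 53.2 CPM at 1 mM and 52.3, 58.8 and 55 CPM at 10 mM, and the groups overlapped throughout. Its log2 fold change was -0.01 (SE 0.0628, edgeR adjusted p = 0.955) at 1 mM and -0.02 (SE 0.0629, edgeR adjusted p = 0.826) at 10 mM. The approximate 95% interval at 10 mM ran from -0.14 to 0.10, beside 3.36 to 3.79 for Sesn2. Sesn3, known as a FOXO target, had 17.2, 20.9 and 21.6 CPM in untreated libraries, 17.5, 19.9 and 20.4 CPM at 1 mM and 23.1, 23.4 and 23.6 CPM at 10 mM. All 3 libraries at 10 mM were above every other library, by a small margin. Against 1 mM the log2 fold change was 0.28 (SE 0.0962), and its edgeR adjusted p of 0.049998 stood at the threshold. That call was lost in 12 alternatives, with adjusted p between 0.0528 and 1, among them leaving out any 1 library other than control replicate 1 (edgeR adjusted p 0.0579 to 0.173). Against the control the log2 fold change of Sesn3 at 10 mM was 0.23 (SE 0.0962, edgeR adjusted p = 0.0688), and it passed only with the replicate number as a block (edgeR adjusted p = 0.00139).

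The most abundant sestrin transcript was Sesn2 at both doses and Sesn1 in the control. By reads per kb of exon, Sesn2 made up 30.5 ± 1.95% of the sestrin transcripts in control libraries, 75.7 ± 2.48% with 1 mM 2-DG and 83.9 ± 1.79% with 10 mM (SD, n = 3 each), and Sesn1 made up 63.6%, 22.3% and 14.5%. The Sesn2 share at each dose lay above all control libraries, and an exact permutation test, two-sided, gave p = 0.1, the smallest possible with 3 libraries against 3. The test took no account of the replicate numbers. The 3 sestrins together had 22.2 ± 1.51 CPM per kb in untreated libraries, 63.3 ± 4.9 with 1 mM 2-DG and 96.2 ± 6.06 with 10 mM (exact permutation p = 0.1 for each pair of doses).

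DDIT4, also called REDD1, restrains mTORC1 through the TSC complex, and DDIT4L (REDD2) is its paralogue. Ddit4 lies at chr10:59949669-59951834 on the minus strand (GRCm38). It had 45.1, 47.9 and 41.4 CPM in untreated libraries, 119, 106 and 131 CPM at 1 mM and 186, 182 and 196 CPM at 10 mM, and the 3 groups did not overlap. It averaged 118 ± 12.8 CPM at 1 mM and 44.8 ± 3.26 CPM in the control (SD, n = 3 each), 2.65-fold higher at 1 mM (log2 1.40, SE 0.0806, edgeR adjusted p = 1.2e-06). At 10 mM it averaged 188 ± 6.88 CPM, 4.2-fold above the control (log2 2.07, SE 0.0818, edgeR adjusted p = 2.53e-08) and 1.59-fold above 1 mM (log2 0.67, SE 0.0781, edgeR adjusted p = 0.00026).

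Ddit4l was a low-count gene, with 38 to 108 counts per library. Its levels were 1.52, 2.47 and 2.03 CPM in untreated libraries, 0.951, 2.29 and 0.988 CPM at 1 mM and 0.993, 1.45 and 0.823 CPM at 10 mM. Replicate 2 was the highest library in every group, and all 3 libraries at 10 mM were below all 3 of the control. The log2 fold change was -0.52 (SE 0.344, edgeR adjusted p = 0.408) at 1 mM and -0.89 (SE 0.353, edgeR adjusted p = 0.0576) at 10 mM. With the replicate block both passed, at -0.55 (edgeR adjusted p = 0.0264) and -0.89 (edgeR adjusted p = 0.000421). At 1 mM the value was -1.05 without 1 mM replicate 2 (edgeR adjusted p = 0.047). The value at 10 mM passed in 8 alternatives in all. Beside the replicate block, these were DESeq2 (-0.89, adjusted p = 0.0381), only the 6 libraries compared (-0.89, edgeR adjusted p = 0.0189), no filter (-0.89, edgeR adjusted p = 0.0398), library totals alone (-0.98, edgeR adjusted p = 0.042), and 3 fits that left out 1 library. Those 3 were the fits without control replicate 1 (-1.07, edgeR adjusted p = 0.0478), without 1 mM replicate 2 (-0.91, edgeR adjusted p = 0.0114) and without 10 mM replicate 2 (-1.16, edgeR adjusted p = 0.0364). Ddit4 made up 97.4% of the pair's reads per kb in untreated libraries, 99.3% at 1 mM and 99.7% at 10 mM.

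**Figure D2:**
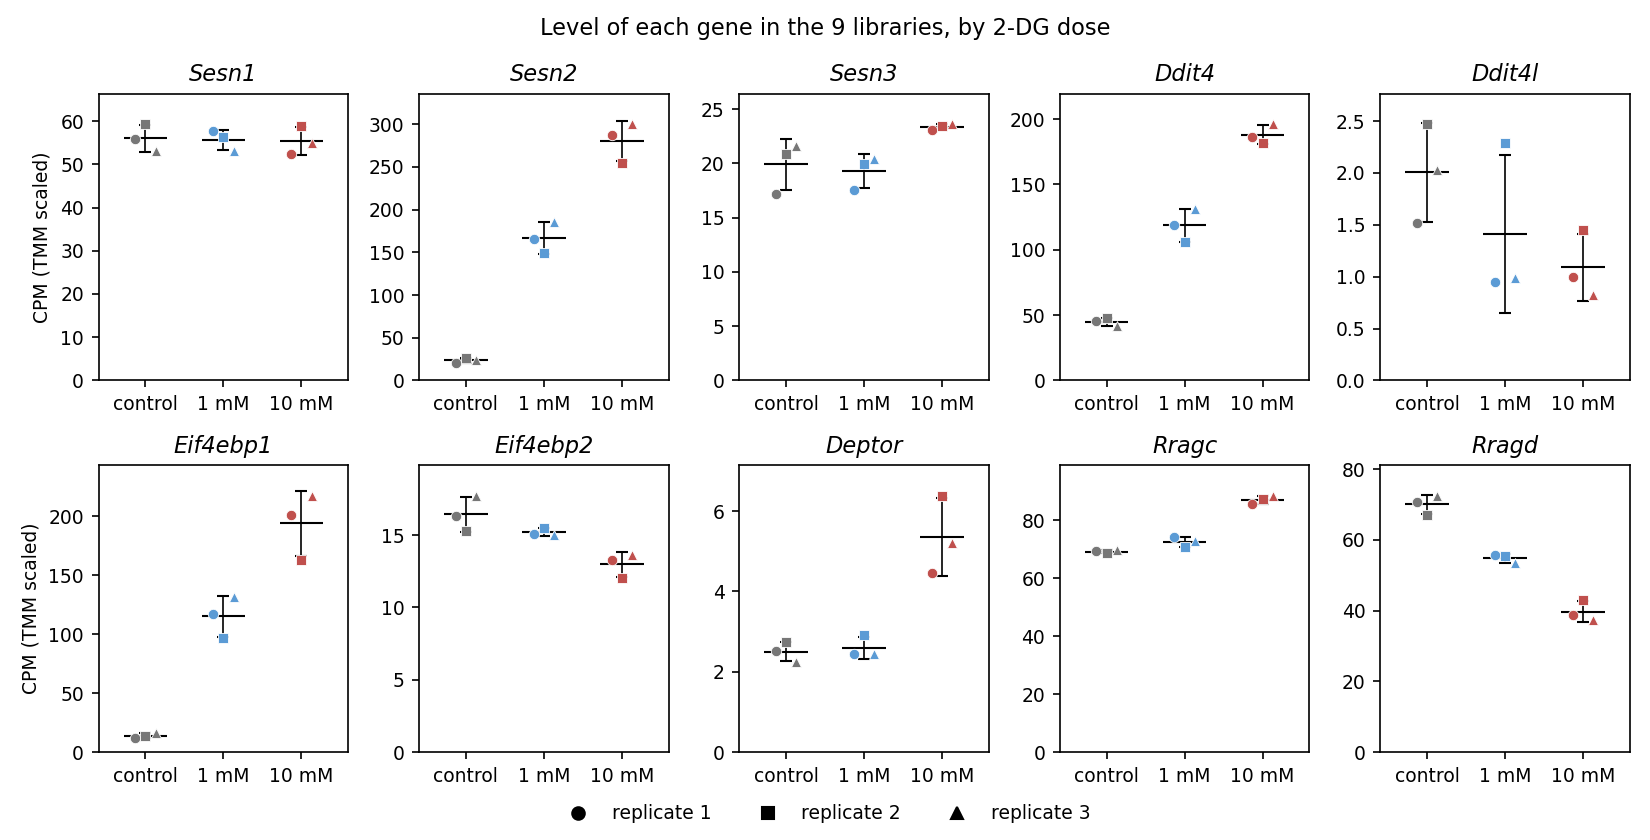
Levels of the 10 genes in CPM (y axis, from 0, a scale of its own in each panel) in the 9 libraries by 2-DG dose, with the marker shape giving the replicate number, the line the group mean and the bar the SD. Sesn2, Ddit4 and Eif4ebp1 stand higher at each dose with no overlap between groups, Sesn1 stays between 52.3 and 59.3 CPM in every library, and Rragd stands lower at each dose.

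The 4E-binding proteins hold eIF4E and block cap-dependent translation until mTORC1 phosphorylates them. 4E-BP2, encoded by Eif4ebp2, is known as the main form in the mammalian brain. Eif4ebp1 lies at chr8:27260329-27276674 on the plus strand (GRCm38). It had 11.7, 13.5 and 16.4 CPM in untreated libraries, 117, 96.9 and 131 CPM at 1 mM and 201, 163 and 217 CPM at 10 mM. Groups were fully separate, and replicate 3 was the highest library in each. It averaged 115 ± 17.3 CPM at 1 mM and 13.9 ± 2.4 CPM in the control (SD, n = 3 each), 8.26-fold higher at 1 mM (log2 3.05, SE 0.155, edgeR adjusted p = 5.03e-07). At 10 mM it averaged 194 ± 28 CPM, 13.9-fold above the control (log2 3.80, SE 0.159, edgeR adjusted p = 3.64e-08), which was the largest fold change among the 10 genes and rank 23 from the largest rise among all genes tested. Between 10 mM and 1 mM the difference was 1.69-fold (log2 0.75, SE 0.138, edgeR adjusted p = 0.0025).

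Eif4ebp2 went the other way by a small amount. It had 16.3, 15.3 and 17.7 CPM in untreated libraries, 15.1, 15.5 and 15.0 CPM at 1 mM and 13.3, 12 and 13.6 CPM at 10 mM, so that the libraries at 10 mM were the lowest 3. It averaged 13 ± 0.831 CPM at 10 mM and 16.4 ± 1.2 CPM in the control (SD, n = 3 each) and fell by 0.34 on the log2 scale (SE 0.0843, edgeR adjusted p = 0.00656). At 1 mM the log2 fold change was -0.11 (SE 0.0838, edgeR adjusted p = 0.47). Between 10 mM and 1 mM it was -0.23 (SE 0.0844, edgeR adjusted p = 0.0635), which passed in 5 alternatives: with the replicate block (edgeR adjusted p = 0.0048), with library totals alone (-0.31, edgeR adjusted p = 0.016), in DESeq2 (-0.23, adjusted p = 0.0419) and without control replicate 2 or 3 (-0.25 each, edgeR adjusted p = 0.0452 and 0.0473). Eif4ebp3, the third family member and part of the list of other pathway genes, rose by 0.53 on the log2 scale at 10 mM against the control (SE 0.104, edgeR adjusted p = 0.00172).

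By reads per kb of exon, Eif4ebp1 made up 68.8 ± 3.02% of the reads of Eif4ebp1 and Eif4ebp2 in control libraries, 95.1 ± 0.808% with 1 mM 2-DG and 97.5 ± 0.209% with 10 mM (SD, n = 3 each). Each dose was separate from the others in all libraries (exact permutation p = 0.1 for each pair, the smallest possible). The annotated exons of Eif4ebp2 are longer (5784 bases) than those of Eif4ebp1 (2196 bases) while the coding parts are alike (360 and 351 bases), and this matters for the control. By coding length Eif4ebp1 held 46.3 ± 3.44% in untreated libraries, 88.4 ± 1.79% at 1 mM and 93.8 ± 0.496% at 10 mM. Which of the 2 transcripts was the more abundant in untreated neurons therefore depends on the length used, whereas Eif4ebp1 was ahead at both doses by either length. Set against the transcript of their partner Eif4e, the 2 binding proteins together stood at 0.381 ± 0.0501 per Eif4e in untreated libraries, 2.44 ± 0.223 at 1 mM and 3.61 ± 0.284 at 10 mM by reads per kb of exon. By coding length the ratio was 0.393 ± 0.0402, 1.82 ± 0.147 and 2.6 ± 0.197 at the same doses. Eif4e itself did not pass the edgeR test at 1 mM (log2 fold change -0.10, SE 0.0676, adjusted p = 0.432) or at 10 mM (0.05, SE 0.0676, adjusted p = 0.539). With the replicate block its value at 1 mM passed (edgeR adjusted p = 0.00947).

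**Figure D3:**
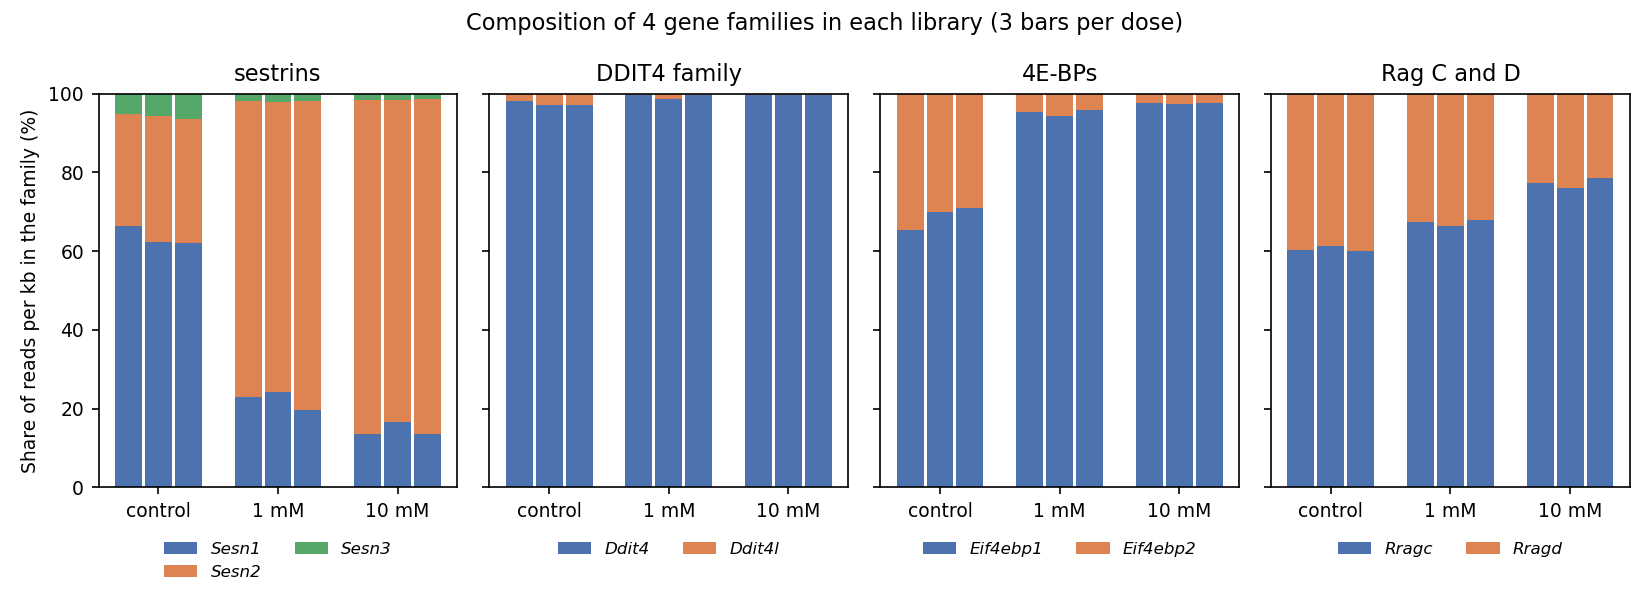
Share of each gene in its family by reads per kb of exon (y axis, percent) in the 9 libraries by 2-DG dose. The families are the sestrins, the DDIT4 family, the 4E-binding proteins Eif4ebp1 and Eif4ebp2 without Eif4ebp3, and the Rag pair C and D. The Sesn2 share stands at 28.3 to 31.9% in the control libraries, at 73.5 to 78.4% at 1 mM and at 81.8 to 84.9% at 10 mM, and the Rragd share stands lower at each dose.

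DEPTOR binds mTOR in both of its complexes and inhibits the kinase. Deptor, at chr15:55112317-55259271 on the plus strand (GRCm38), was weakly expressed, with 103 to 121 counts per library in the control and at 1 mM and 193 to 269 at 10 mM. It had 2.52, 2.74 and 2.25 CPM in untreated libraries, 2.44, 2.92 and 2.45 CPM at 1 mM and 4.46, 6.38 and 5.22 CPM at 10 mM. Control and 1 mM libraries were interleaved, and every library at 10 mM was above all of them. It averaged 5.35 ± 0.967 CPM at 10 mM and 2.5 ± 0.248 CPM in the control (SD, n = 3 each), 2.14-fold higher at 10 mM (log2 1.10, SE 0.158, edgeR adjusted p = 0.000233). Between 10 mM and 1 mM the rise was 2.06-fold (log2 1.04, SE 0.157, edgeR adjusted p = 0.000935), the largest of the 10 genes in that comparison and rank 64 from the largest rise among all genes. At 1 mM the log2 fold change was 0.06 (SE 0.163, edgeR adjusted p = 0.886), with an approximate 95% interval of -0.26 to 0.37. The gene Gm9920 is annotated on the opposite strand with 303 shared exon bases. Whether counting took account of strand is not given in the sources used here. Gm9920 itself had 1 to 3 counts in control libraries, 1 count in each library at 1 mM and 4 to 10 counts at 10 mM.

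RagC and RagD are the alternative partners of RagA or RagB in the heterodimer that brings mTORC1 to the lysosome. Rragd is known as a target of the lysosomal transcription factors TFEB and TFE3. Rragc lies at chr4:123917446-123936997 and Rragd at chr4:32983037-33022180, both on the plus strand (GRCm38). Rragc, whose start region holds the E-box printed in capitals, had 69.3, 68.6 and 69.7 CPM in untreated libraries, 74.2, 70.8 and 72.7 CPM at 1 mM and 85.7, 87.3 and 88.4 CPM at 10 mM. The libraries varied little within a dose and no dose overlapped another. It averaged 87.2 ± 1.35 CPM at 10 mM and 69.2 ± 0.564 CPM in the control (SD, n = 3 each), 1.26-fold higher at 10 mM (log2 0.33, SE 0.042, edgeR adjusted p = 9.92e-05). It was 1.2-fold higher at 10 mM than at 1 mM (log2 0.26, SE 0.0419, edgeR adjusted p = 0.00121). At 1 mM the log2 fold change was 0.07 (SE 0.0421, edgeR adjusted p = 0.37). The gene 4930535I16Rik is annotated opposite Rragc with 264 shared exon bases and was not analysed here.

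Rragd had 70.6, 67.0 and 72.4 CPM in untreated libraries, 55.6, 55.4 and 53.4 CPM at 1 mM and 38.8, 42.9 and 37.3 CPM at 10 mM. Each dose stood below the one before it in every library. It averaged 54.8 ± 1.21 CPM at 1 mM and 70 ± 2.73 CPM in the control (SD, n = 3 each) and fell by 0.35 on the log2 scale (SE 0.0604, edgeR adjusted p = 0.00435). At 10 mM it averaged 39.7 ± 2.92 CPM, 0.567 of the control (log2 -0.82, SE 0.0611, edgeR adjusted p = 2.82e-06) and 0.724 of the level at 1 mM (log2 -0.47, SE 0.0611, edgeR adjusted p = 0.000461). Rragd was the only one of the 10 genes that fell in all 3 comparisons.

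By reads per kb of exon, Rragc and Rragd together had 34.2 ± 0.696 CPM per kb in untreated libraries, 32.3 ± 0.556 with 1 mM 2-DG and 33.8 ± 0.644 with 10 mM (SD, n = 3 each). The exact permutation test gave p = 0.5 for 10 mM against the control and p = 0.1 for the other pairs, and a p of this size does not show that the sum was the same. The sum also depended on the length used. By coding length it was 105 ± 2.44 CPM per kb in untreated libraries, 95.9 ± 1.57 with 1 mM 2-DG and 96.1 ± 2.24 with 10 mM, and every library at either dose was below all control libraries (exact permutation p = 0.1 for each dose against the control). Rragd made up 39.5 ± 0.742% of the sum in untreated libraries, 32.8 ± 0.715% at 1 mM and 22.7 ± 1.34% at 10 mM (exact permutation p = 0.1 for each pair). Per Rraga and Rragb transcript, Rragc and Rragd together stood at 0.708 ± 0.04 in untreated libraries, 0.655 ± 0.0194 at 1 mM and 0.721 ± 0.0117 at 10 mM, and the exact permutation p for 10 mM against the control was 0.6. By coding length this ratio was 1.18 ± 0.0696, 1.06 ± 0.0294 and 1.13 ± 0.021 at the same doses (exact permutation p = 0.3 for 10 mM against the control).

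**Figure D4:**
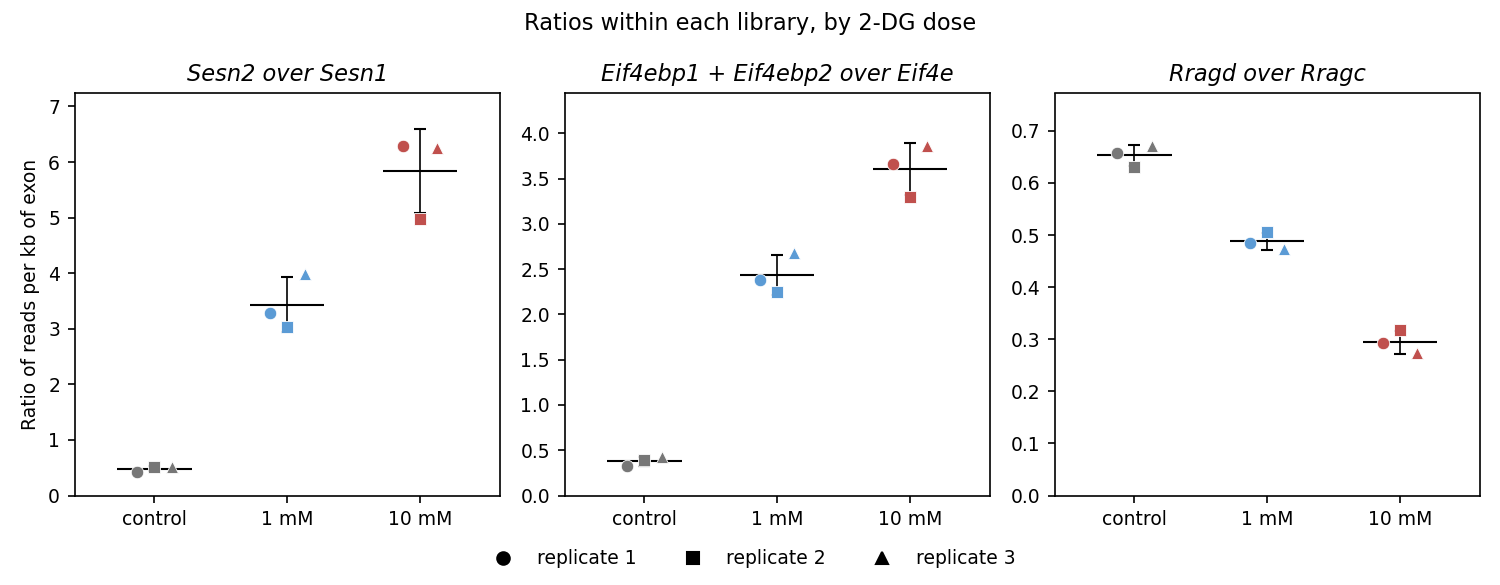
Ratios of reads per kb of exon within each of the 9 libraries (y axis, from 0) by 2-DG dose, with the marker shape giving the replicate number, the line the group mean and the bar the SD. Sesn2 over Sesn1 is 4.97 to 6.29 at 10 mM and 0.427 to 0.513 in the control. Eif4ebp1 and Eif4ebp2 together, without Eif4ebp3, over Eif4e are 3.3 to 3.86 at 10 mM and 0.326 to 0.424 in the control. Rragd over Rragc is 0.273 to 0.317 at 10 mM and 0.631 to 0.671 in the control.

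The steps of dose were also compared within each gene, but not between genes. The step of 10 mM over 1 mM minus the step of 1 mM over the control was tested for every gene in the same edgeR model, and 1.57% of all genes passed, 0.284% with a larger and 1.29% with a smaller second step. It was -2.29 on the log2 scale for Eif4ebp1 (SE 0.238, edgeR adjusted p = 0.000961), -2.07 for Sesn2 (SE 0.167, edgeR adjusted p = 0.000136) and -0.74 for Ddit4 (SE 0.134, edgeR adjusted p = 0.0238). For these 3 genes the first step was the larger. For Ddit4 the call was lost without 1 mM replicate 1 (-0.73, edgeR adjusted p = 0.123), without 10 mM replicate 1 (-0.73, edgeR adjusted p = 0.0695) and without 1 mM replicate 3 (-0.58, edgeR adjusted p = 0.122). Deptor had the reverse sign, 0.99 (SE 0.281, edgeR adjusted p = 0.122), as did Sesn3 at 0.32 (SE 0.168, edgeR adjusted p = 0.389) and Rragc at 0.20 (SE 0.073, edgeR adjusted p = 0.222), and these passed only with the replicate block (edgeR adjusted p = 0.00222, 0.0242 and 0.0173), where 26.1% of all genes did (14.4% upward and 11.7% downward). For Rragd the difference of steps was -0.11 (SE 0.105, edgeR adjusted p = 0.661).

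The order of levels among the 10 genes depends on the length by which counts are divided. By exon length, Ddit4 was highest in the control at 25.5 ± 1.86 CPM per kb, followed by Rragc at 20.7 ± 0.169, Sesn1 at 14.1 ± 0.794 and Rragd at 13.5 ± 0.527 (SD, n = 3 each). Sesn2 at 6.79 ± 0.824 and Eif4ebp1 at 6.33 ± 1.09 CPM per kb came next, and Eif4ebp2, Sesn3, Ddit4l and Deptor were lower, at 2.84, 1.30, 0.687 and 0.282 CPM per kb in turn. Sesn1 and Rragd lay within each other's range, as did Sesn2 and Eif4ebp1. At 10 mM the order by CPM per kb of exon was Ddit4 at 107 ± 3.92, Eif4ebp1 at 88.3 ± 12.7 and Sesn2 at 80.8 ± 6.67, with the ranges of Eif4ebp1 and Sesn2 overlapping, ahead of Rragc at 26.1 ± 0.403 and Sesn1 at 13.9 ± 0.819. Rragd then stood at 7.67 ± 0.564 CPM per kb, behind Sesn1. By coding length Ddit4 again led the control, at 65.2 ± 4.74 CPM per kb, but Eif4ebp2 at 45.6 ± 3.35 stood above Sesn1 at 32 ± 1.8, and the ranges of Eif4ebp2 and Eif4ebp1 (39.6 ± 6.82) overlapped. At 10 mM by coding length Eif4ebp1 led with 552 ± 79.6 CPM per kb, ahead of Ddit4 at 274 ± 10.0 and Sesn2 at 195 ± 16.1, and these 3 genes were the highest by either length.

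Other transcripts had patterns close to those of these genes over the 9 libraries. Among 11767 genes searched, the 3 with the highest Pearson correlation of log2 CPM with Sesn2 were Trim66 (r = 0.999), Ddit3, which encodes the stress transcription factor CHOP (r = 0.997), and Gpt2, a mitochondrial alanine aminotransferase (r = 0.997). For Ddit4 they were Stc2, a secreted glycoprotein, Slc3a2, the heavy chain of amino acid exchangers, and Asns, asparagine synthetase, each at r = 0.999. For Eif4ebp1 they were the ER chaperone gene Hsp90b1, the serine hydroxymethyltransferase gene Shmt2 and Ddit3, each at r = 0.995. The 3 genes nearest to Deptor were Fxr2, Irf2bpl and Ankle2 (r = 0.99, 0.989 and 0.985), those nearest to Rragc were Dus3l, Zranb1 and Dgcr14 (r = 0.995, 0.995 and 0.994), and those nearest to Rragd were Trappc1, Txnrd1 and Wbp5 (r = 0.996, 0.992 and 0.991). For Eif4ebp2 they were Smoc1, Mrpl33 and Plxnb1 (r = 0.982, 0.981 and 0.98). These values describe likeness over 9 libraries that share 3 dose groups and 1 scaling, and carry no test. They leave the size of a change aside. At 10 mM against the control the log2 fold change was 0.20 for Fxr2 and 1.10 for Deptor, and 5.34 for Trim66 and 3.57 for Sesn2.

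The other genes of the mTORC1 pathway had smaller differences from the control than the 3 steepest regulators. Of 69 listed by role, 68 were tested, and 5 rose and 3 fell at 1 mM against the control (median log2 fold change 0.02), where 5.69% of all genes rose and 4.34% fell. At 10 mM against the control 30 rose and 17 fell (median 0.09), where 25.7% of all genes rose and 24.0% fell, and at 10 mM against 1 mM 21 rose and 7 fell (median 0.09), where 17.5% and 13.7% of all genes did. With the replicate block 19 rose and 15 fell at 1 mM, beside 18.1% and 18.3% of all genes. In that fit 35 rose and 20 fell at 10 mM against the control, beside 34.4% and 33.8%, and 33 rose and 13 fell between 10 mM and 1 mM, beside 30.7% and 25.6%. Scaling by library totals alone, which moved the median of all genes at 10 mM against the control to -0.101 from -0.0106, gave 4 rises and 5 falls at 1 mM. It gave 23 rises and 21 falls at 10 mM against the control, and 15 rises and 13 falls between 10 mM and 1 mM. The count at 1 mM also hung on single libraries: it was 2 without control replicate 1, 1 mM replicate 1, control replicate 3 or 1 mM replicate 3 (2 rises and 0 falls each), 4 without control replicate 2 or 10 mM replicate 3, and 5 without 1 mM replicate 2.

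Within the branch on which sestrins and Rag GTPases act, B630005N14Rik, whose current name is Bmt2 (SAMTOR, a sensor of S-adenosylmethionine), rose by a log2 fold change of 0.32 at 1 mM (SE 0.0414, edgeR adjusted p = 0.000694) and 0.97 at 10 mM (SE 0.0415, edgeR adjusted p = 4.3e-08). Itfg2, a subunit of the KICSTOR complex, rose by 0.28 (SE 0.0786, edgeR adjusted p = 0.0464) and 0.87 (SE 0.0784, edgeR adjusted p = 1.05e-05) at the same doses. Gatsl2, now called Castor2, a relative of the arginine sensor CASTOR1, had a log2 fold change of -0.34 at 1 mM (SE 0.0856, edgeR adjusted p = 0.033) and -0.74 at 10 mM (SE 0.0865, edgeR adjusted p = 5.88e-05). Nprl3, a subunit of GATOR1, the complex that switches off RagA and RagB, fell by 0.70 on the log2 scale at 10 mM against 1 mM (SE 0.0873, edgeR adjusted p = 0.00036). At 10 mM against the control 25.7% of all genes rose and 24.0% fell. Of the 14 tested genes of GATOR, KICSTOR and the sensors, 7 rose and 4 fell there. Those that rose included 4 of the 5 subunits of GATOR2, the sestrin-binding complex: Mios (0.26, SE 0.0473), Wdr24 (0.33, SE 0.0626), Wdr59 (0.28, SE 0.0682) and Seh1l (0.44, SE 0.0644), which were singled out after their values were seen. The remaining subunit, Sec13, was at 0.08 (SE 0.0599, edgeR adjusted p = 0.276) and passed with the replicate block (edgeR adjusted p = 0.0179). Of the Rag, Ragulator and folliculin genes, 3 of 11 rose and 3 fell, and Rraga and Rragb were at 0.01 (SE 0.0586, edgeR adjusted p = 0.855) and -0.16 (SE 0.067, edgeR adjusted p = 0.0695). With the replicate block Rragb passed (edgeR adjusted p = 0.00279).

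In the core of the complex, 4 of 6 genes rose and 1 fell at 10 mM against the control. For this and the other roles below, the shares of all genes were 25.7% rising and 24.0% falling. Tti1, an assembly factor of mTOR and related kinases, had the largest fall past the threshold among the other pathway genes at 10 mM against the control, -0.77 (SE 0.0663, edgeR adjusted p = 7.84e-06). It was at -0.66 against 1 mM (SE 0.0663, edgeR adjusted p = 0.000131). Mtor itself was at -0.07 (SE 0.0477, edgeR adjusted p = 0.268). Among TSC complex and Rheb genes, 1 of 5 rose and 1 fell. The gene that fell was Rhebl1, a Rheb paralogue, at -0.69 (SE 0.147, edgeR adjusted p = 0.00281). Substrates and their targets gave 9 rises and 2 falls among 16 genes. Eif4b, a translation initiation factor, rose by 0.23 at 1 mM (SE 0.0456, edgeR adjusted p = 0.00983) and by 0.75 at 10 mM (SE 0.0457, edgeR adjusted p = 6.58e-07). At 1 mM against the control Ulk1, the kinase that starts autophagy, was at -0.23 (SE 0.0559, edgeR adjusted p = 0.0284) and Eif4g1, the scaffold that competes with 4E-binding proteins for eIF4E, at -0.17 (SE 0.0454, edgeR adjusted p = 0.0416). The calls of Ulk1, Eif4g1, Gatsl2 and Itfg2 at 1 mM were each lost when replicate 1 or 3 of either group was left out, and in 5, 7, 5 and 6 of the 9 fits that left out 1 library (edgeR adjusted p 0.0509 to 0.167 where lost). That of Eif4b was lost without 1 mM replicate 1 (edgeR adjusted p = 0.0517), and that of B630005N14Rik in none of the 9. Growth factor and energy inputs gave 5 rises and 5 falls among 12 genes, and mTORC2 subunits 1 and 1 among 4. With the replicate block the TSC complex and Rheb genes gave 2 rises and 1 fall, and the mTORC2 subunits 1 rise and 2 falls. In that fit 34.4% of all genes rose and 33.8% fell.

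**Figure D5:**
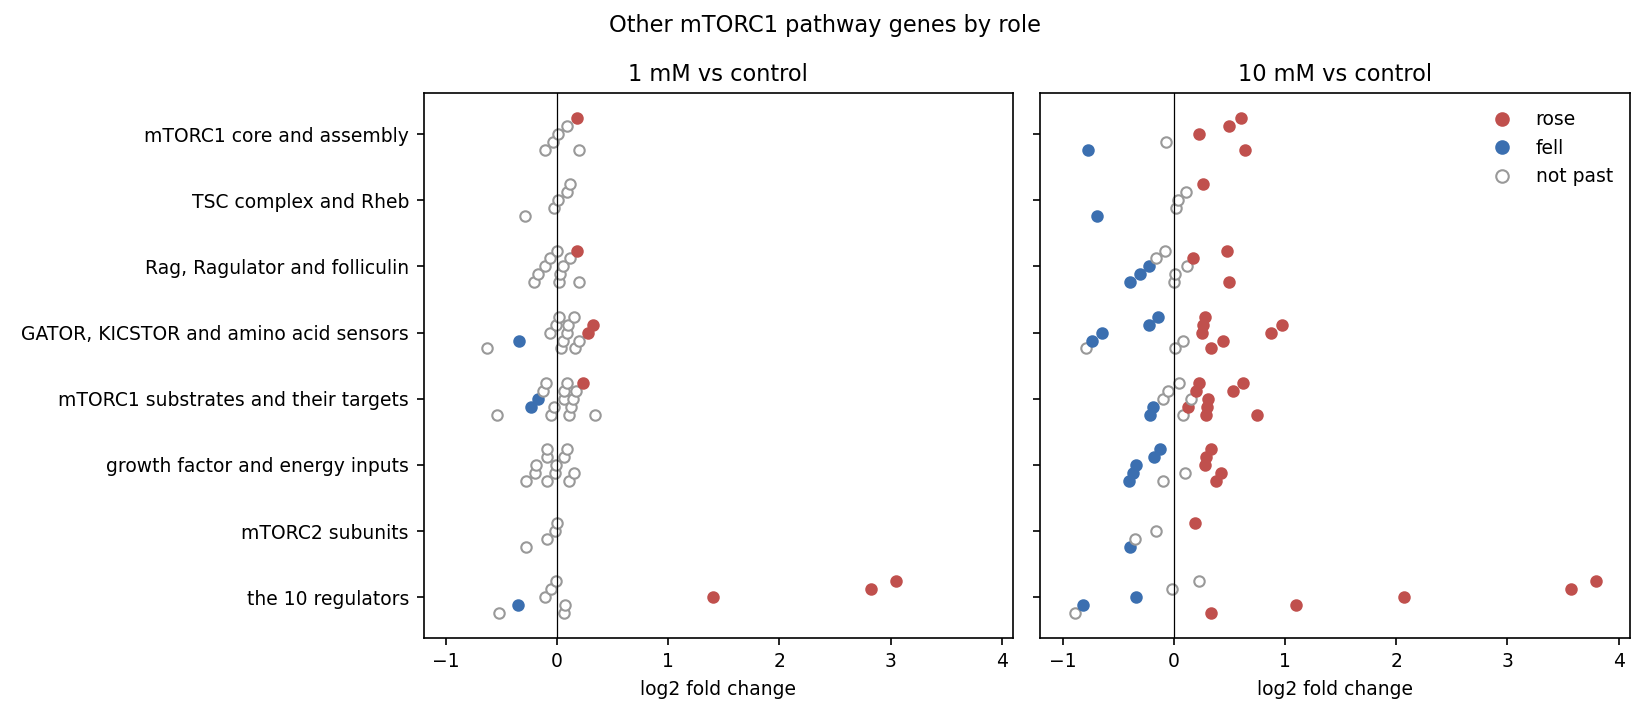
Log2 fold changes of the 10 regulators and of the 68 other pathway genes tested, grouped by role, for 1 mM and 10 mM against the control, with filled points where the edgeR adjusted p was under 0.05 (red rose, blue fell). Sesn2, Eif4ebp1, Ddit4 and Deptor (1.10) lie beyond all 68 other pathway genes at 10 mM against the control, where the largest rise among the 68 is 0.97.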

How the data were processed

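The authors deposited a table of raw gene counts for 9 libraries. Per the labels' protocols, cDNA was amplified, made into stranded libraries with removal of ribosomal RNA, read as 75-base pairs and aligned to mm10 with STAR 2.4.0; the submitters' processing notes also name bcl2fastq 2.17 and HTSeq. Which annotation and strand option HTSeq was given is not stated in the labels. The 1 row without a gene name was left out (at most 0.000216% of a library). Genes were filtered with filterByExpr (minimum count 10, minimum total 15) and scaled by TMM, and 1 quasi-likelihood model over all 9 libraries was tested in edgeR 4.0.16 (R 4.3.3), two-sided, with Benjamini-Hochberg adjustment at 0.05. The SE is the size of the log2 fold change divided by the square root of F. Shares and sums used exon lengths from GENCODE M21 and exact permutation tests over libraries. These permutation tests exchanged libraries without regard to replicate number, and so left aside the pairing described below. Scripts were tested on simulated data.

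The 10 genes and all lists were chosen with earlier results of these data known. All 10 are named, with the 3 largest rises and 3 largest falls of the pathway list past the threshold in each comparison; 1 of the 69 listed, Kics2, was not analysed here. For each member past the threshold at 10 mM against the control, the 3 genes most like it were taken, by Pearson correlation of log2 CPM, among genes averaging 1 or more log2 CPM. The 10 genes themselves and predicted genes (symbols of Gm and digits, or ending in Rik) were left out of that search. The test of the 2 dose steps, the ratios to Eif4e and to Rraga and Rragb, and the sums and order by coding length were added after the counts were seen.

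Replicate numbers were checked for pairing: deviations from the group means correlated at 0.351 to 0.518 between libraries of the same number and at -0.344 to -0.112 between different numbers, so the numbers pair the samples as seen in the data, and a fit with the number as a block is quoted where it changes a call of the 10 genes or moves a count in the text by over 1.5 times. No libraries were duplicates: the smallest chi-square per gene between replicates was 8.91. Alternatives were other scalings (including DESeq2 1.42.0), no filter, a minimum fold of 1.5, only the 6 libraries compared, and leaving out each library. Intervals and errors treat reads without molecular identifiers, which are not independent molecules.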

Additional observations from a re-analysis of the deposited data

How the results depend on the processing

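The rises of Sesn2, Ddit4 and Eif4ebp1 at both doses against the control, of Deptor at 10 mM and the fall of Rragd at 10 mM kept their direction and their side of the threshold in all alternatives run. With a minimum fold of 1.5, the counts of genes past the threshold were 166, 869 and 71 (1 mM against control, 10 mM against control, 10 mM against 1 mM), 0 of the 10 regulators passed between 10 mM and 1 mM, and the pathway list gave 0, 4 and 0. Against the control, the call of Rragd at 1 mM (log2 fold change -0.35) was lost there. So were those of Eif4ebp2 (-0.34) and Rragc (0.33) at 10 mM. With the replicate block, 5506 genes passed at 1 mM and 8528 between 10 mM and 1 mM, where 1520 and 4731 did without it, and the pathway list gave 34 and 46. Beyond the calls given in the report, the block changed no call of the 10 regulators. Leaving out 1 library gave 810 to 1568 genes at 1 mM (810 without 1 mM replicate 1, 821 without control replicate 1, 847 without 1 mM replicate 3 and 877 without control replicate 3) and 2 to 9 of the pathway list. That list gave 4 at 1 mM without the filter and with only the 6 libraries compared. Scaling by library totals alone gave 2851 rises and 4775 falls at 10 mM against the control, where 3899 and 3639 were found with TMM, and 1564 and 2961 between 10 mM and 1 mM, where 2655 and 2076 were found.

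Family shares moved with the length used. By coding length and by raw counts, the difference in Ddit4 share was 3.59 and 3.05 points at 1 mM and 4.35 and 3.70 at 10 mM against the control. That in Eif4ebp1 share was 42.2 and 42.5, then 47.6 and 48, and 5.40 and 5.51 between 10 mM and 1 mM. That in Rragd share was -18.9 and -19.0 at 10 mM and -11.6 and -11.8 between 10 mM and 1 mM. Signs turned only in values past no threshold, and the cause was not tested. Leaving out 1 library, Sesn1 ranged from -0.05 to 0.04 at 1 mM (above 0 without control replicate 2, and at 0.02 without 1 mM replicate 3), from -0.08 to 0.02 at 10 mM (above 0 without 10 mM replicate 1, and at 0.005 without control replicate 2) and from -0.08 to 0.03 between 10 mM and 1 mM (above 0 without replicate 1 of either dose). At 1 mM Sesn3 ranged from -0.14 to 0.02 (above 0 without 1 mM replicate 1 or control replicate 3) and Deptor from -0.03 to 0.13 (below 0 without 1 mM replicate 2 or control replicate 3). Ddit4l between 10 mM and 1 mM ranged from -0.64 to 0.14 (above 0 without 1 mM replicate 2). The difference of steps ranged from -0.07 to 0.05 for Sesn1, which was at 0.01 without the filter, and from -0.29 to 1.19 for Ddit4l. Ddit4l and Deptor had the fewest reads of the 10 genes, with 38 to 108 and 103 to 269 counts per library, and the part of depth in their errors was not tested.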
